A study of Mus musculus with 6 samples.

Results

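The genes described here build the fibrous and sheet-like parts of the extracellular matrix: the collagen chains, the laminin chains, and the linkers and glycoproteins that join them (the nidogens Nid1 and Nid2, perlecan Hspg2, agrin Agrn, fibronectin Fn1 and Sparc). They were picked by gene symbol, as every probe set annotated with 1 symbol, and no second one, that belongs to these families, with the brightest probe set standing for a gene that had several. This gave 60 genes, of which 44 were collagen chains and 16 were laminins, linkers and glycoproteins, among 19938 genes with a tested probe set. Their levels were read from Affymetrix mouse Gene ST arrays hybridized with RNA from heads of C57BL/6 embryos at E8.5. Jarid1b knockouts (3 pools) were compared with Jarid1b heterozygotes (3 pools), and each pool combined 4 heads. Knockouts had lost a loxP-flanked Jarid1b exon on both alleles after recombination by a constitutive Cre, so the deletion was present throughout the embryo. The heterozygotes carried the same deletion on 1 allele, and wild-type heads were not analysed here. Jarid1b (also Kdm5b) removes methyl groups from H3K4, a histone mark found at the starts of active genes.

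Collagens are long triple helices, whose chains are wound together before secretion. Fibrillar collagens assemble into banded fibrils in mesenchyme, fibril-associated collagens sit on the surface of these fibrils, and collagen VI forms beaded filaments around cells. Basement membranes are thin sheets under epithelia and around vessels, in which a laminin polymer, made of alpha, beta and gamma chains, is tied to a collagen IV network by nidogen and perlecan. In the early head such sheets line the neural epithelium, the surface ectoderm and the gut, with mesenchyme between them.

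The sequence in front of the gene is shown for 3 members that stand for the range of the list: Col27a1, with the smallest p-value, Col1a2, a chain of the main fibrillar collagen, and Sparc, with the lowest fold change. Each is the 250 bases before the transcription start, from RefSeq (GRCm38.p6), at chr4:63215162-63215411 on the plus strand for Col27a1, chr6:4505368-4505617 on the plus strand for Col1a2 and chr11:55420081-55420330 on the minus strand for Sparc. They are written 5′ to 3′ on the strand of the gene. Capitals mark matches, on either strand, to GGGCGG (a GC box), CCAAT or TATAAA.
Col27a1: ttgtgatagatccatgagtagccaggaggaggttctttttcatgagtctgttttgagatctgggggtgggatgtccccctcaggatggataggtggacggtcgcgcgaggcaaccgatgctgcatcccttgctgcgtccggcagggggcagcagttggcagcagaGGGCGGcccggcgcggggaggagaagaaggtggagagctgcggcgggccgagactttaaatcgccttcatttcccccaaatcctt
Col1a2: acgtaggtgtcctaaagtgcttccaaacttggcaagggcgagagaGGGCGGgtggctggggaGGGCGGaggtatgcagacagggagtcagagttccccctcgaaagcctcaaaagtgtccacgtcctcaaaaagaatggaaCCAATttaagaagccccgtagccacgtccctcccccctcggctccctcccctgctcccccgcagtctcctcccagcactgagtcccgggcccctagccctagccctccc
Sparc: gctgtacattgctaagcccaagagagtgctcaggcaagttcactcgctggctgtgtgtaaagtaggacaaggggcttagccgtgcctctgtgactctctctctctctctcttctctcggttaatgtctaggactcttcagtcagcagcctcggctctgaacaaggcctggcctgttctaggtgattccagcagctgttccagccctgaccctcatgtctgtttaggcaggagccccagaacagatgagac
Col27a1 held 1 GC box, which began 85 bases before the start. Col1a2 held a CCAAT box that began 109 bases before the start and GC boxes that began 205 and 188 bases before it, whereas none of the 3 motifs was found in the Sparc window. RefSeq windows matched 44 of the 60 genes and gave 49 windows, to be read beside 32851 windows of all genes. GGGCGG was present in 57.1% of the windows of the matrix genes and in 32.7% of all windows, CCAAT in 30.6% and 33.8%, and TATAAA in 10.2% and 12.4%. GC boxes were present in 22 of 38 windows of collagen chains (57.9%) and in 6 of 11 windows of laminins, linkers and glycoproteins (54.5%). These are too few windows to compare the classes closely. Matches of different motifs were counted separately, also where they share bases, and a match is a run of letters and not a measured site.

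The targeted gene was measured first as a check of the labels. Kdm5b had a log2 intensity of 7.63, 7.47 and 7.71 in the knockout pools, against 9.17, 9.12 and 9.16 in the heterozygote pools. It was low in every knockout pool, and the groups did not overlap. Kdm5b was 2.92-fold lower in knockouts, with a log2 fold change of -1.55 and a standard error of 0.07 (limma, adjusted p = 6.29e-04), and was the only probe set at an adjusted p under 0.05, which is 0.00459% of the 21789 tested. Fold changes varied with brightness over the whole array. Their log2 median was 0.056 for the dimmest 7263 probe sets, -0.0004 for the middle 7263 and -0.035 for the brightest 7263. The pools are labelled as heads, and all 8 neuroepithelium markers lay above the dimmest 7263 probe sets, as did all 11 visceral endoderm markers and all 7 heart markers. The pools also differed in sex-linked transcripts. The Y-linked Uty had a log2 intensity of 7.20, 7.48 and 7.17 in knockouts and of 5.77, 7.60 and 5.77 in heterozygotes. Xist had 8.82, 3.74 and 8.91 in knockouts and 10.17, 4.22 and 10.08 in heterozygotes. The labels do not give the sex of the embryos, and its part in the values of the matrix genes, the X-linked Col4a5 and Col4a6 among them, was not tested.

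No matrix gene passed an adjusted p under 0.05, and the smallest was 0.389 (limma). Differences were small throughout, from a log2 fold change of -0.13 for Sparc to 0.26 for Col19a1, and 0 of 60 genes were past 1.5-fold, beside 0.0734% of all tested probe sets. At an unadjusted p under 0.05, 11 of the 60 genes (18.3%) were higher in knockouts, beside 5.97% of all tested probe sets, and 0 were lower, beside 4.66%. All 11 were collagen chains. Of the 60 genes, 44 had a positive log2 fold change and 16 a negative one, with a median of 0.08, and 49.7% of all tested probe sets were positive, with a median of -0.0007. In 14 genes every knockout pool was above every heterozygote pool, beside 8.03% of all tested probe sets, and in 1, Sparc, every knockout pool was below, beside 9.03%. The Sparc probe set was among the brightest 7263, of which 1222 had every knockout pool below every heterozygote pool. With 3 pools against 3, exact permutation of the pools cannot reach a p below 0.1 for any gene, and p-values measure only the spread between these pools. In RNA from whole heads, fewer cells of a type and less RNA per cell cannot be told apart.

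**Figure D1:**
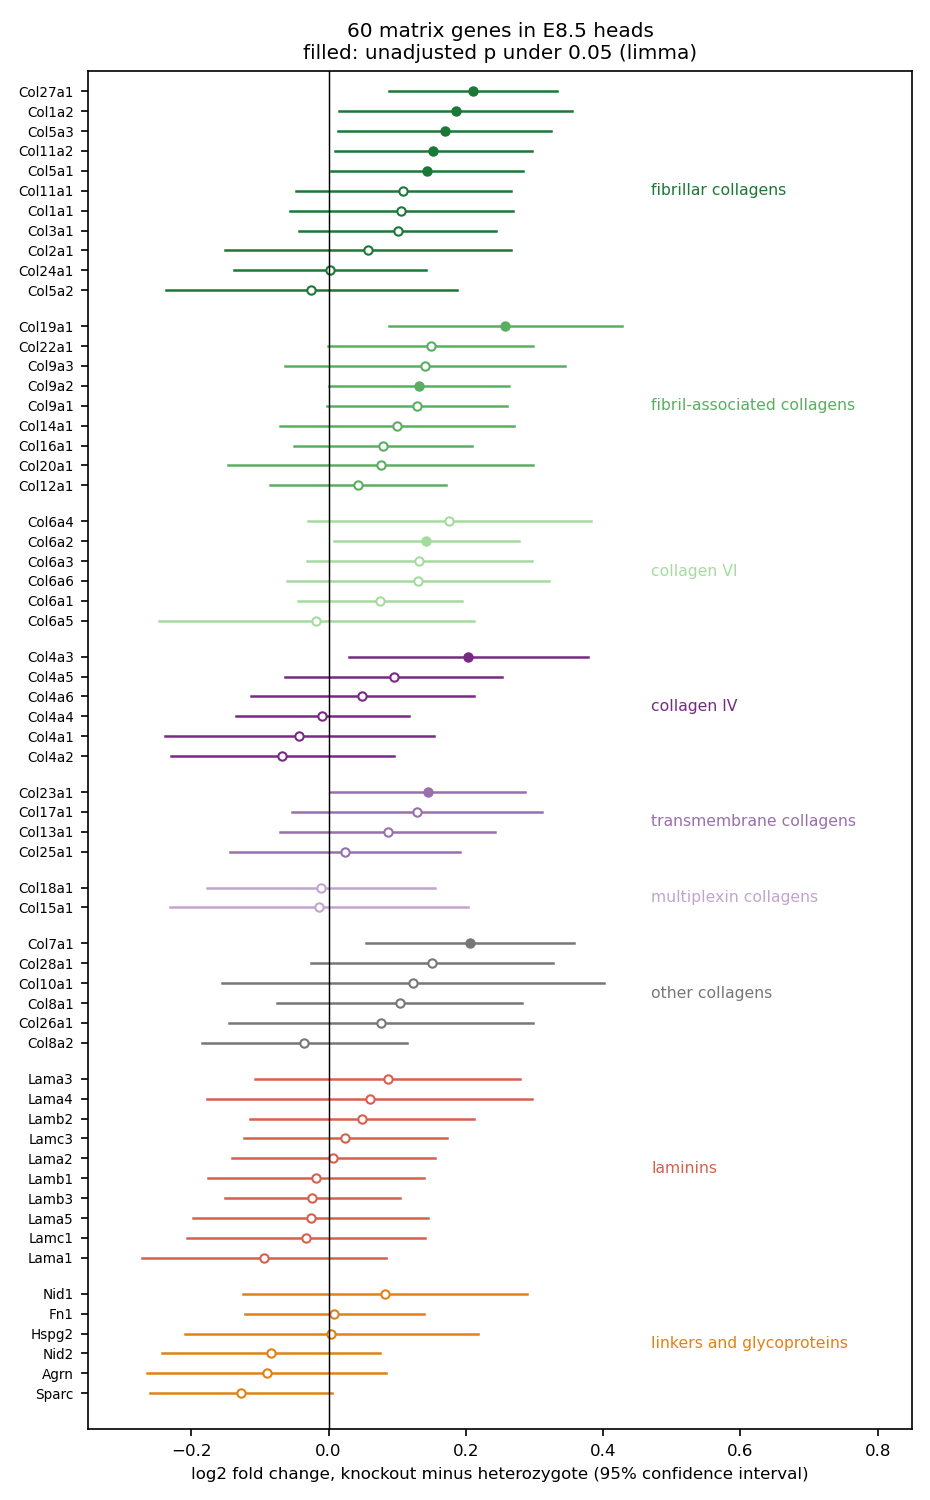
Log2 fold change, knockout minus heterozygote, of the 60 matrix genes by role, with 95% confidence intervals from limma (3 pools in each group). Filled points, all of collagen chains, have an unadjusted p under 0.05. Fibrillar, fibril-associated, transmembrane and VI collagens lie mostly right of 0, while laminins and linkers lie on both sides.

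The count of higher genes depended on how the arrays were set against each other. It was 2 after median centring (3.33% of the genes, beside 2.94% of all tested probe sets), 4 after quantile normalization (6.67%, beside 4.13%) and 5 after cyclic loess (8.33%, beside 3.85%). It was 11 without knockout pool 1 (18.3%, beside 6.35%), 7 without knockout pool 2 (11.7%, beside 6.31%), 6 without knockout pool 3 (10%, beside 4.92%), 4 without heterozygote pool 1 (6.67%, beside 5.20%), 7 without heterozygote pool 2 (11.7%, beside 5.43%) and 6 without heterozygote pool 3 (10%, beside 4.72%). Several of these shares were thus close to that of all probe sets. Most of the 11 calls were lost in a large part of the 15 alternatives tried. An unadjusted p under 0.05 was kept in all 15 by Col27a1, in all 14 that tested it by Col19a1 and in 13 by Col7a1, but in only 8 by Col1a2 and Col4a3, 7 by Col5a3, 6 by Col6a2 and Col23a1, 5 by Col5a1 and 4 by Col11a2 and Col9a2. The median log2 fold change over collagen chains, 0.10, stayed positive under all of these, at 0.07 after median centring, which put the median over all tested probe sets at -0.04, 0.09 after quantile normalization and 0.08 after cyclic loess.

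Fibrillar collagens, the fibril-forming chains of skin, bone and cartilage, were positive in 10 of 11 members, with a median log2 fold change of 0.11. At an unadjusted p under 0.05, 5 of the 11 were higher in knockouts, beside 5.97% of all tested probe sets: Col27a1, Col1a2, Col5a3, Col11a2 and Col5a1. Col27a1, a chain of cartilage, had a log2 intensity of 6.53, 6.49 and 6.57 in knockouts, against 6.28, 6.35 and 6.32 in heterozygotes. The lowest knockout pool lay above the highest heterozygote pool, and the spread within each group was small beside the gap. The log2 fold change was 0.21, or 1.16-fold, with a standard error of 0.05 (limma, unadjusted p = 0.00443, adjusted p = 0.389). Collagen I, the most abundant collagen of the body, is a trimer of Col1a1 and Col1a2. Col1a2 measured 7.11, 7.35 and 7.18 in knockouts, against 7.09, 6.99 and 7.01 in heterozygotes, with a log2 fold change of 0.19 ± 0.07 (SE; limma, unadjusted p = 0.0365, adjusted p = 0.441). The groups did not overlap, although knockout pool 1 lay close to heterozygote pool 1, and without knockout pool 2, the highest, the log2 fold change was 0.12 (limma, unadjusted p = 0.116). Its partner Col1a1 measured 6.55, 6.78 and 6.65 in knockouts, against 6.55, 6.57 and 6.54 in heterozygotes, and here the lowest knockout pool lay within the heterozygote range (log2 fold change 0.11, limma unadjusted p = 0.167).

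The chains of collagen V, which joins collagen I in fibrils and limits their width, gave values of both signs. Col5a1 had a log2 fold change of 0.14 (limma, unadjusted p = 0.0463, adjusted p = 0.464) and Col5a3 of 0.17 (unadjusted p = 0.0359, adjusted p = 0.44), both with non-overlapping groups. Col5a2 had -0.02, with knockout pools at 5.61, 5.93 and 5.81 and heterozygote pools at 5.76, 5.75 and 5.91. Its knockout pools thus spanned the whole heterozygote range, and its sign turned positive without knockout pool 1 or heterozygote pool 3. Col3a1, a fibrillar collagen of soft tissues and vessels, had a log2 fold change of 0.10 with overlapping groups (limma, unadjusted p = 0.145). Among the chains of cartilage fibrils, Col11a2 had 0.15 with non-overlapping groups (limma, unadjusted p = 0.0402, adjusted p = 0.453). The fibrillar collagens not named here had log2 fold changes between 0.0021 and 0.11, each at an unadjusted p over 0.05.

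Fibril-associated collagens were positive in 9 of 9 members, with a median of 0.13, and 4 had every knockout pool above every heterozygote pool, beside 8.03% of all tested probe sets. Col19a1, found in basement membrane zones, had the highest fold change of the 60 genes. It measured 5.08, 4.93 and 5.04 in knockouts, against 4.86, 4.66 and 4.76 in heterozygotes, so that all knockout pools lay above. The log2 fold change was 0.26 ± 0.07 (SE; limma, unadjusted p = 0.00829, adjusted p = 0.391), and its probe set was among the dimmest 7263. There 1 of 7 collagen chains was higher at an unadjusted p under 0.05, beside 10.5% of all probe sets of that brightness. Col9a2, a chain of the collagen that coats cartilage fibrils, measured 6.59, 6.69 and 6.69 in knockouts, against 6.55, 6.48 and 6.55 in heterozygotes (log2 fold change 0.13, limma unadjusted p = 0.0488, adjusted p = 0.468). Its groups lay apart by less than the spread among knockout pools. The other 7 members lay between 0.04 and 0.15, with overlapping groups except in Col9a1 and Col22a1.

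Collagen VI, the filament-forming collagen around cells, was positive in 5 of 6 members, with a median of 0.13. Col6a2 measured 6.36, 6.35 and 6.49 in knockouts, against 6.26, 6.26 and 6.26 in heterozygotes. Heterozygote pools were almost identical, and the 3 knockout pools all lay above them. The log2 fold change was 0.14 ± 0.06 (SE; limma, unadjusted p = 0.0406, adjusted p = 0.454). Col6a1 and Col6a3 assemble with Col6a2 into 1 trimer, and had log2 fold changes of 0.08, with non-overlapping groups, and 0.13, with overlapping groups (limma, unadjusted p = 0.185 and 0.0992). Col6a5 and Col6a6 each had a second, dimmer probe set on the array. For Col6a5 the brighter probe set had a log2 fold change of -0.02 and the dimmer one 0.17, so that the sign depended on the probe set, whereas Col6a6 had 0.13 and 0.07.

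Among the remaining collagens, 4 of 4 transmembrane collagens, which are anchored in the cell surface, were positive, with a median of 0.11. The single members lay between 0.02 and 0.14. Col23a1 was higher in knockouts at an unadjusted p under 0.05 (log2 fold change 0.14, limma unadjusted p = 0.0471, adjusted p = 0.465). A further 6 collagens of other kinds were positive in 5, with a median of 0.11 and a range of -0.04 to 0.21. Among them Col7a1, which forms the anchoring fibrils that fasten the epidermal basement membrane to the dermis, measured 6.42, 6.41 and 6.52 in knockouts, against 6.17, 6.33 and 6.23 in heterozygotes. Every knockout pool lay above the heterozygote pools, with a log2 fold change of 0.21 ± 0.07 (SE; limma, unadjusted p = 0.0139, adjusted p = 0.41). The multiplexins Col15a1 and Col18a1, sugar-carrying collagens of basement membrane zones, both had a log2 fold change of -0.01. That of Col18a1 turned to 0.02 after quantile normalization and after cyclic loess.

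**Figure D2:**
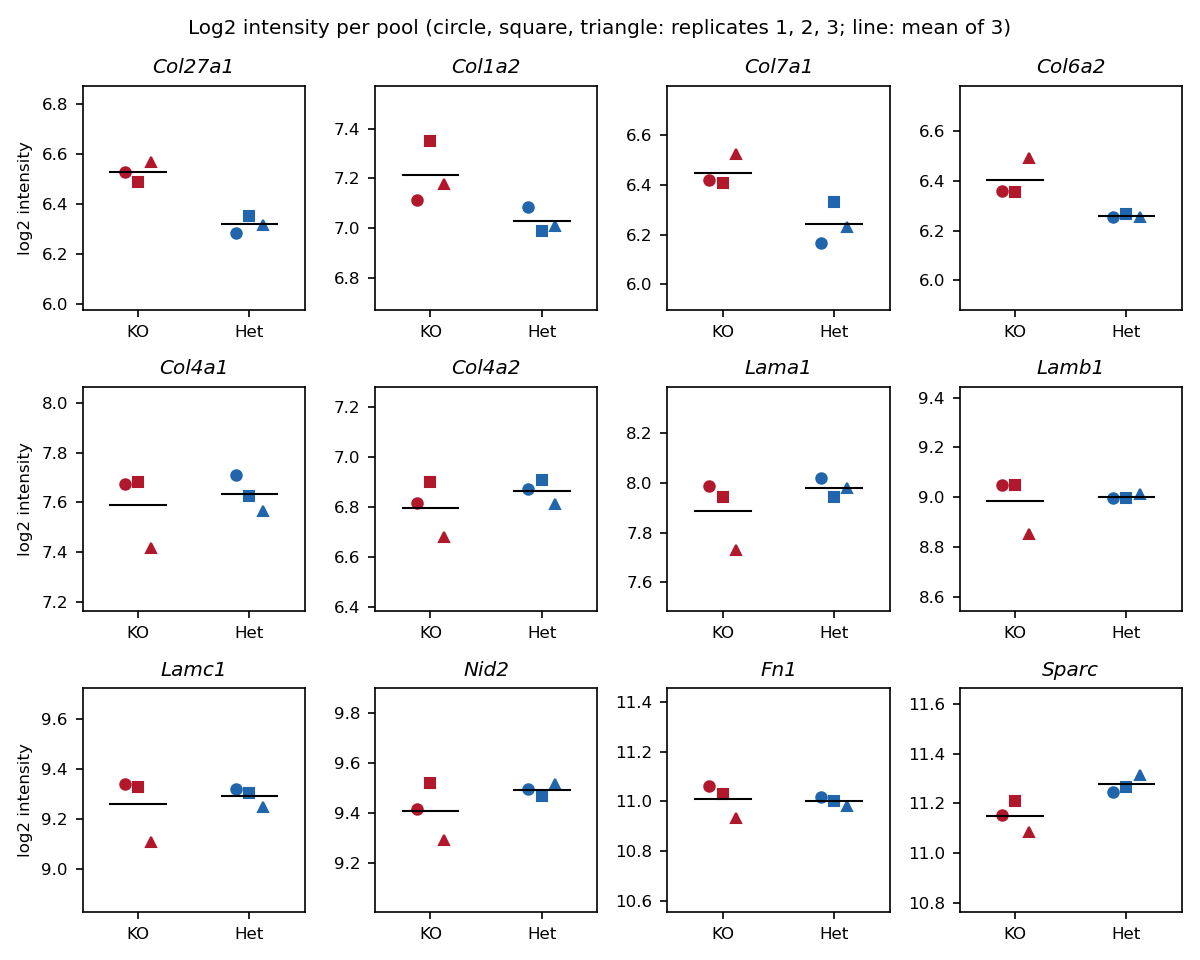
Log2 intensity of 12 matrix genes in each knockout (KO) and heterozygote (Het) pool; marker shapes give the replicate number and lines the mean of 3 pools, and each panel spans the same width of log2 intensity. The collagen chains of the top row have every knockout pool above every heterozygote pool. For Col4a1, Col4a2, Lama1, Lamb1, Lamc1, Nid2, Fn1 and Sparc knockout pool 3 is the lowest of all 6 pools. Over all 60 matrix genes that pool is the lowest for 10 (16.7%), beside 20.6% of all tested probe sets.

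Collagen IV, the network-forming collagen of basement membranes, was divided in direction. Of its 6 chains, 3 were positive and 3 negative, and the median log2 fold change of 0.02 became -0.02 after median centring, which lowered the median over all tested probe sets by a like amount, to -0.04. Col4a1 and Col4a2, which form the collagen IV trimer found in nearly all basement membranes, start 21 bases apart and run in opposite directions. Col4a1 measured 7.67, 7.68 and 7.42 in knockouts, against 7.71, 7.63 and 7.57 in heterozygotes. Col4a2 measured 6.82, 6.90 and 6.68 in knockouts, against 6.87, 6.91 and 6.81 in heterozygotes. In both genes knockout pool 3 was the lowest of the 6 pools and the other knockout pools lay within or close to the heterozygote range. Their log2 fold changes were -0.04, with a 95% confidence interval from -0.24 to 0.15, and -0.07, from -0.23 to 0.09 (limma, unadjusted p = 0.627 and 0.364).

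The chains of the more restricted collagen IV networks gave mixed values. Col4a3, known from the membranes of kidney glomeruli, measured 5.45, 5.67 and 5.69 in knockouts, against 5.39, 5.43 and 5.39 in heterozygotes. Knockout pool 1 lay just above the heterozygotes and the other knockout pools well above, with a log2 fold change of 0.20 ± 0.08 (SE; limma, unadjusted p = 0.0275, adjusted p = 0.421). Col4a4, its neighbor and partner in the same trimer, had a log2 fold change of -0.01, with overlapping groups. The X-linked pair Col4a5 and Col4a6, which start 1343 bases apart and also run in opposite directions, had 0.10 and 0.05 (limma, unadjusted p = 0.202 and 0.503).

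Of the 10 laminin chains, 5 were positive and 5 negative. At an unadjusted p under 0.05 (limma), 0 were higher, beside 5.97% of all tested probe sets, and 0 were lower, beside 4.66%. The median log2 fold change was -0.0056, which became 0.0038 after quantile normalization and 0.0013 after cyclic loess. Lama1, Lamb1 and Lamc1 form the laminin of the earliest embryonic basement membranes. Lamb1 measured 9.05, 9.05 and 8.85 in knockouts, against 9.00, 9.00 and 9.01 in heterozygotes. Lamc1 measured 9.34, 9.33 and 9.11 in knockouts, against 9.32, 9.30 and 9.25 in heterozygotes. Lama1 measured 7.99, 7.94 and 7.73 in knockouts, against 8.02, 7.94 and 7.98 in heterozygotes. For all 3 chains knockout pool 3 lay below every other pool, and the other knockout pools lay within or next to the heterozygote range. The log2 fold changes were -0.02 for Lamb1 (95% confidence interval from -0.18 to 0.14), -0.03 for Lamc1 (from -0.21 to 0.14) and -0.09 for Lama1 (from -0.27 to 0.08). Without knockout pool 3 those of Lamb1 and Lamc1 were 0.05 and 0.04, and both were also above 0 after quantile normalization and after cyclic loess. Lama5, the alpha chain of most later epithelial basement membranes, had -0.03, which turned positive after either normalization. The other 6 laminin chains lay between -0.02 and 0.09, all with overlapping groups.

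Among linkers and glycoproteins, the matrix-binding glycoprotein Sparc had the lowest log2 fold change of the 60 genes. It measured 11.15, 11.21 and 11.08 in knockouts, against 11.25, 11.27 and 11.32 in heterozygotes. All knockout pools lay below all heterozygote pools, yet the highest knockout pool was close to the lowest heterozygote pool. The log2 fold change was -0.13 ± 0.06 (SE; limma, unadjusted p = 0.0571, adjusted p = 0.481), and it was -0.09 without knockout pool 3. Nid2, which bridges laminin and collagen IV, measured 9.42, 9.52 and 9.29 in knockouts, against 9.50, 9.47 and 9.51 in heterozygotes (log2 fold change -0.08, limma unadjusted p = 0.259). Its paralog Nid1 measured 6.97, 7.32 and 7.06 in knockouts, against 7.02, 7.05 and 7.03 in heterozygotes (log2 fold change 0.08, unadjusted p = 0.384). In both nidogens the knockout pools lay on either side of the heterozygote pools. Agrn, a heparan sulfate proteoglycan, had a log2 fold change of -0.09, with knockout pool 1 the highest and knockout pool 2 the lowest of the 6 pools. Fn1, the main adhesive glycoprotein of early mesenchyme, and Hspg2 had log2 fold changes of 0.01 and 0.0039, with 95% confidence intervals from -0.12 to 0.14 and from -0.21 to 0.22, and both were below 0 after median centring, as was the median over all tested probe sets.

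Each class was then followed pool by pool. The classes were split after the data were seen, and these medians use the same values as the fold changes. The deviation of each gene from its mean over the 6 pools had a median over the 44 collagen chains of 0.06, 0.05 and 0.05 in the knockout pools, against -0.04, -0.03 and -0.05 in the heterozygote pools. This holds for the median only, since 8 of the 44 chains had a negative log2 fold change and 14 had groups that did not overlap. Over the 16 laminins, linkers and glycoproteins it was 0.06, 0.0048 and -0.10 in knockouts, against 0.03, 0.0069 and 0.01 in heterozygotes. Here knockout pool 3 stood apart from the other knockout pools, and the median log2 fold change of this class, -0.0071 with all pools and slightly above 0 after quantile normalization and cyclic loess, was 0.04 without it. Knockout pool 3 was the lowest pool for 7 of the 10 brightest matrix genes (Sparc, Fn1, Nid2, Lamc1, Lamb1, Lama1 and Col18a1), beside 30.8% of the brightest 7263 probe sets, and for 3 of the 44 collagen chains (Col4a1, Col4a2 and Col18a1), beside 20.6% of all tested probe sets.

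**Figure D3:**
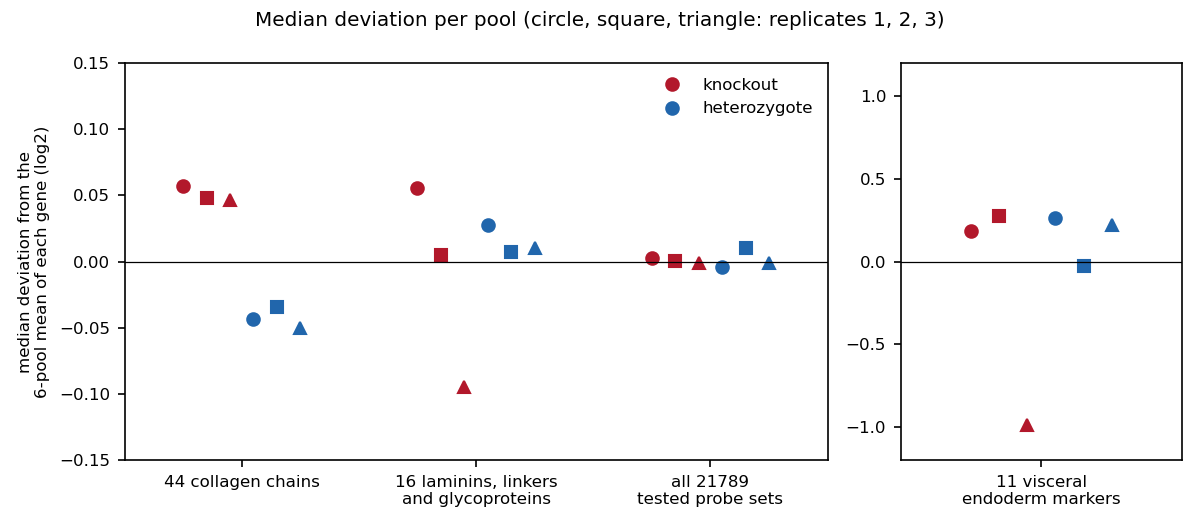
Median deviation of each gene's log2 intensity from its mean over the 6 pools, for 44 collagen chains, 16 laminins, linkers and glycoproteins, every tested probe set and, on its own scale, 11 visceral endoderm markers. Red symbols are knockout pools and blue symbols heterozygote pools. The median over collagen chains is above 0 in the knockout pools and below 0 in the heterozygote pools, whereas knockout pool 3 lies lowest for the laminins, linkers and glycoproteins and, at -0.99, for the endoderm markers.

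The same pool was low in endoderm transcripts. All 11 visceral endoderm markers were lowest in knockout pool 3, beside 20.6% of all tested probe sets and 30.8% of the brightest 7263. Their median deviation was 0.18, 0.28 and -0.99 in the knockout pools, against 0.26, -0.03 and 0.22 in the heterozygote pools, and their summed intensity was 3984 to 8973 in knockouts and 7605 to 9042 in heterozygotes. This extraembryonic layer also secretes basement membrane proteins. Its part in the low values of Lama1, Lamb1, Lamc1, Col4a1, Col4a2 and Nid2 in that pool was not tested. Over all 6 collagen IV chains the median deviation in that pool was 0.0058. Endothelium, another source of basement membrane, had 8 of 10 markers lowest in knockout pool 3, beside the same 20.6% of all tested probe sets. The summed intensity of these 10 markers was 1616 to 2026 in knockouts and 1768 to 1893 in heterozygotes. Of 5 parietal endoderm markers, of the layer that lays down the thick membrane of the yolk sac, 1 was lower at an unadjusted p under 0.05 (limma). Their median deviation was -0.07, -0.03 and -0.12 in knockouts, against 0.01, 0.06 and 0.06 in heterozygotes, with sums of 1135 to 1148 in knockouts and 1135 to 1208 in heterozygotes. Of 7 primitive blood markers 1 was higher, and knockout pool 2 stood apart, with sums of 354 to 1848 in knockouts and 277 to 376 in heterozygotes. Of 8 markers of cranial mesenchyme, which secretes fibrillar collagen, 0 passed an unadjusted p under 0.05, 1 was positive and 7 were negative, with a median log2 fold change of -0.05 and sums of 3045 to 3240 in knockouts and 3142 to 3263 in heterozygotes. Of 7 surface ectoderm markers 3 were lower at an unadjusted p under 0.05 (limma), with sums of 5829 to 6464 in knockouts and 6845 to 7093 in heterozygotes. Of 8 neuroepithelium markers 3 were higher, with sums of 3545 to 3801 in knockouts and 3528 to 3636 in heterozygotes. All these marker calls are to be read beside 5.97% of all tested probe sets higher and 4.66% lower. Among the brightest 7263 probe sets, which held 5 of the 7 surface ectoderm markers, 6.71% were lower. Among the dimmest 7263 probe sets were 3 of the 7 primitive blood markers and 1 of the 5 parietal endoderm markers. The part of all these lists in the values of the matrix genes was not tested.

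The collagen values were also read against probe sets of like brightness. Of the 44 collagen chains, 36 lay among the middle 7263 probe sets, and 10 of these 36 were higher in knockouts at an unadjusted p under 0.05, beside 6.72% of the middle probe sets. In 13 of the 36 the groups did not overlap, beside 8.99%. The median log2 fold change of these 36 chains was 0.10 and that of the middle probe sets -0.0004. The 9 laminins, linkers and glycoproteins among the brightest 7263 probe sets had a median of -0.03, beside -0.035 for all probe sets there. Of these 9, 0 were lower at an unadjusted p under 0.05 (limma), beside 6.71% of the brightest probe sets. Class and brightness went together, as 1 collagen chain, Col18a1, and 9 of the other 16 genes were among the brightest probe sets, and the part of brightness in the class values was not tested.

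**Figure D4:**
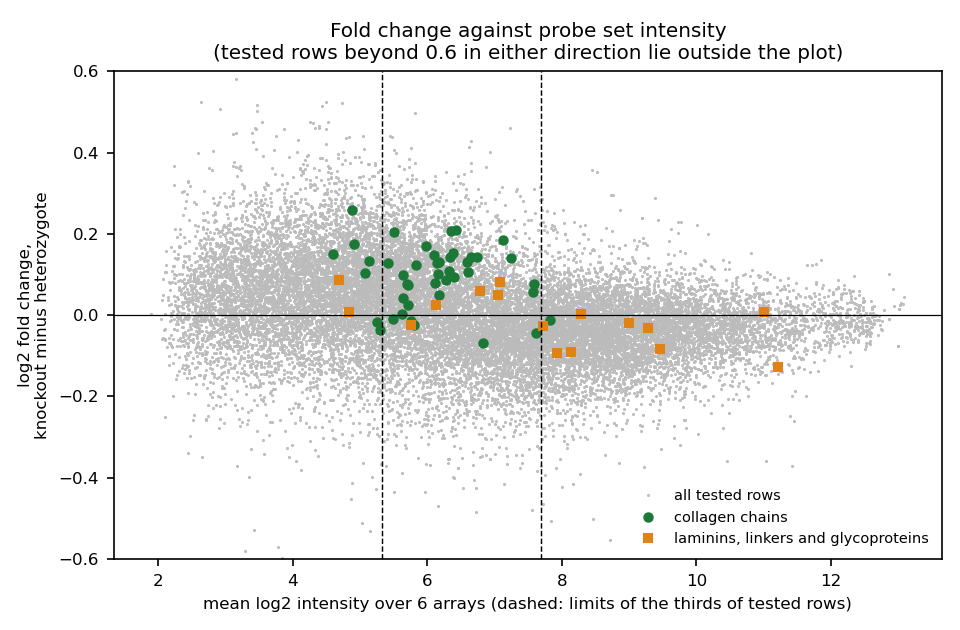
Log2 fold change, knockout minus heterozygote, against mean log2 intensity over the 6 arrays for all tested probe sets (grey), collagen chains (green circles) and laminins, linkers and glycoproteins (orange squares); dashed lines bound the dimmest, middle and brightest 7263 probe sets. Of 44 collagen chains, 36 lie between the dashed lines, mostly above 0, and 9 of the other 16 genes lie to the right of them.

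Genes that bind, make and remodel this matrix had few calls, to be read beside 5.97% of all tested probe sets higher and 4.66% lower. Of 26 matrix receptors 3 were higher and 1 was lower in knockouts at an unadjusted p under 0.05 (limma), with a median log2 fold change of 0.01: the integrin chains Itga4 (0.29), Itgb8 (0.25) and Itgb4 (0.24) on one side and the syndecan Sdc2 (-0.19) on the other. Itga4, a receptor chain for fibronectin, measured 6.02, 6.32 and 6.13 in knockouts, against 5.96, 5.76 and 5.87 in heterozygotes, without overlap (limma, adjusted p = 0.399). Itgb4 pairs with an alpha chain to bind laminin and measured 6.09, 5.95 and 6.09 in knockouts, against 5.76, 5.84 and 5.82 in heterozygotes, also without overlap (limma, adjusted p = 0.391). Of 29 measured genes of collagen synthesis and crosslinking, 1 was higher, the tolloid-family protease Tll2 (0.20), and 2 were lower, the hydroxylase complex member P3h4 (-0.23) and the lysyl hydroxylase Plod3 (-0.14), with a median of -0.03. Of 23 measured remodelling genes, the gelatinase Mmp9 was higher (0.23) and the protease inhibitor Timp1 lower (-0.25), with a median of -0.0086. Of 29 other matrix genes, the Sparc relative Sparcl1 was higher (0.30) and vitronectin Vtn lower (-0.19), with a median of 0.03. The smallest adjusted p among all these genes was 0.391 (limma). Of 120 such counts under the alternatives 39 moved, either to or from 0 or by over 1.5 times. The largest of these counts was 4, so a move can be a change of 1 gene. Of the genes lower in collagen synthesis, 0 remained with the replicate block and without knockout pool 2, heterozygote pool 2 or heterozygote pool 3, and the higher call of Mmp9 was lost after each of the 3 normalizations. Itgb4 and Plod3 were named after their values were seen.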

How the data were processed

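RNA from 3 knockout and 3 heterozygote pools was hybridized to the arrays. The deposited values are intensities that the authors summarized by RMA, run in Affymetrix Power Tools per the submitters' notes. The version and genome build are not given in the sources used here. These intensities are linear, with a median of 58.1 to 62.9 per array, so their log2 was taken first. The number of arrays limits the precision, with a median standard error of 0.071. Of 35556 rows, 21789 paired with exactly 1 symbol were tested, 1621 had several symbols and 12146 none listed. Symbols of 21698 matched RefSeq.

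Knockouts and heterozygotes were compared with limma 3.58.1 (lmFit, eBayes) in R 4.3.3 without covariates, with Benjamini-Hochberg adjustment over all tested probe sets. The script was tested on simulated data. Named genes are Kdm5b, members at an unadjusted p under 0.05, the 5 highest and 5 lowest fold changes, the 10 brightest members, the chains of the main trimers, the linkers, and the highest and lowest genes of each related list. The members and lists were chosen with earlier results of these data known. Alternatives were a filter on dim probe sets, the fit on all rows, the mean of a gene's probe sets, 3 further normalizations (median centring, quantile, cyclic loess), limma with trend and robust, array weights, a replicate block and the omission of each pool. The split into collagen chains and other genes, and the motifs, were added after seeing the data.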

Additional observations from a re-analysis of the deposited data

How the results depend on the processing

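No matrix gene passed an adjusted p under 0.05 (limma) and none was past 1.5-fold in any of the 15 alternatives. At an unadjusted p under 0.05, 11 matrix genes were higher in knockouts, all collagen chains. Without dim probe sets 12 of 51 were higher (23.5% beside 4.47% of the probe sets left). The count was 11 with the mean of a gene's probe sets (18.3% beside 6.04%) and 10 with array weights (16.7% beside 6.04%). It became 6 with all rows tested (10% beside 5.08% of all rows), 2 after median centring, 4 after quantile normalization and 5 after cyclic loess. It was 5 with limma trend and robust (8.33% beside 4.84%) and 4 to 11 without 1 pool. The counts over collagen chains alone were the same. The labels do not say whether replicate numbers pair the pools. Deviations of same-numbered pools correlated at 0.0008, 0.106 and -0.013, which cannot settle this with only 3 pools in each group. With the replicate block 7 were higher (11.7% beside 6.06%). The count of lower genes was 1 without dim probe sets and with limma trend and robust (Sparc), and 0 to 1 without 1 pool (Agrn without knockout pool 1 and Sparc without knockout pool 2). The median over the 60 genes, 0.08, was 0.0385 after median centring, 0.0591 after quantile normalization, 0.0548 after cyclic loess and 0.0617 to 0.0803 without 1 pool. That over collagen chains was 0.0658, 0.0874 and 0.0794 after the 3 normalizations and 0.0958 to 0.1173 without 1 pool. That over laminins, linkers and glycoproteins was -0.0463 after median centring and -0.0471 to 0.0425 without 1 pool. Over all tested probe sets, 1 to 2 passed an adjusted p under 0.05 without 1 pool.

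Of 493 values of named genes under alternatives, 466 kept their direction and their side of an adjusted p of 0.05, whereas many calls at an unadjusted p crossed the threshold, as given above. The sign changed in 10 genes, whose log2 fold changes lay within 0.0825 of 0. After quantile normalization and cyclic loess, Col18a1 was at 0.0170 and 0.0173, Lama5 at 0.0049 and 0.0005, Lamb1 at 0.0171 and 0.0178, and Lamc1 at 0.0026 and 0.0021. After median centring, Fn1 was at -0.0304 and Hspg2 at -0.0353, and Hspg2 was at -0.0091 with array weights. Leaving out 1 pool at a time gave -0.0779 to 0.0280 for Col18a1, -0.0874 to 0.0438 for Col4a1, -0.0370 to 0.0228 for Col4a4, -0.0980 to 0.0622 for Col5a2, -0.0181 to 0.0459 for Fn1, -0.0731 to 0.0650 for Hspg2, -0.0966 to 0.0356 for Lama5, -0.0513 to 0.0476 for Lamb1, -0.0730 to 0.0436 for Lamc1 and -0.0181 to 0.1550 for Nid1. The sign changed without knockout pool 3 for Col18a1, Col4a1, Lamb1 and Lamc1, without knockout pool 2 for Col18a1, Col4a4, Lama5, Fn1 and Nid1, without knockout pool 1 for Col5a2, Fn1 and Hspg2, without heterozygote pool 2 for Col18a1 and Hspg2, and without heterozygote pool 3 for Col5a2 and Fn1. The cause of these changes was not tested.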
